A study of Mus musculus with 8 samples.

Results

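The genes described here are the 5 NF-kB subunits (Nfkb1, Nfkb2, Rel, Rela and Relb) and 5 members of the IkB family (Bcl3, Nfkbia, Nfkbid, Nfkbie and Nfkbiz). They are 10 of the 25078 gene rows of the tables, and all 10 passed the filter on low counts that left 12428 genes to test. The set was chosen by name around Bcl3, which was selected on its low level in STAT3ko T cells. The differences between STAT3ko and WT cells are therefore given for these genes as descriptions with no p. The comparisons of CD8 with CD4 cells did not enter the choice and were tested, with p-values that measure the spread between libraries made from combined cells.

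Donor T cells were sorted from the spleen of WT recipients on day 6 after hematopoietic cell transplantation (HCT), and their RNA was sequenced. Donors were WT C57BL/6 mice or STAT3ko C57BL/6 mice, in which a Cre driven by Cd4 sequences deletes a floxed part of Stat3 (Stat3 fl/fl CD4-Cre) in CD4+ and CD8+ T cells alike. The recipients were lethally irradiated BALB/c mice that also received T cell-depleted bone marrow from WT donors, so CD4 and CD8 cells of WT and of STAT3ko donors, 4 groups in all, shared the allogeneic transplant and lacked an untransplanted control. Each group had 2 libraries, each made from cells combined from several recipients, and the ages of the animals were not given in the sources used here. The study asked how STAT3 in donor T cells bears on graft-versus-host disease (GVHD) and graft-versus-leukemia activity. The paper calls recipients of WT T cells GVHD recipients and those of STAT3ko T cells non-GVHD recipients. Donor genotype and recipient disease therefore cannot be told apart in these libraries. The terms STAT3ko effect and STAT3 loss below stand for the difference between these groups.

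NF-kB subunits bind DNA as dimers and switch on genes of activation, survival and cytokine production. Nfkb1 and Nfkb2 encode precursors that are processed to the p50 and p52 subunits, which lack an activation domain of their own, while Rel (c-Rel), Rela (p65) and Relb carry one. Classical inhibitors such as Nfkbia (IkB alpha) and Nfkbie (IkB epsilon) hold dimers in the cytosol until IkB kinase marks them for degradation. The nuclear IkB proteins Bcl3, Nfkbid (IkB NS) and Nfkbiz (IkB zeta) instead join p50 or p52 dimers at target genes and can raise or lower their transcription. In T cells these factors act downstream of the T cell receptor and of costimulatory receptors of the TNF receptor family.

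The libraries held between 20171396 and 23282757 counts, and the members had between 187 and 17244 counts per library. A count of 0 would allow up to 0.149 CPM in the shallowest library (3 counts, counting error only). Stat3, the deleted gene, had 432 ± 5.19 CPM (TMM-scaled counts scaled to a common library size, SD, n = 2) in WT CD4 and 140 ± 2.22 CPM in STAT3ko CD4 cells. The CD8 groups had 433 ± 3.15 and 131 ± 16.5 CPM, so the remaining reads were at 32.4% and 30.3% of WT. Cd4 and Cd8a separated the sorts, with at most 8.16 CPM of Cd4 in CD8 libraries and at most 15.996 CPM of Cd8a in CD4 libraries. The summed level of 8 macrophage and monocyte markers was between 5.76 and 14.2 CPM (by column total) in the 4 libraries numbered replicate 1 and between 56.1 and 91.3 CPM in the 4 numbered replicate 2. It thus moved with the replicate number and not with genotype or lineage, and its part in the values below was not tested. The labels number the libraries of replicates 1 and 2 in separate series and do not say whether a number marks a shared day or pool.

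Bcl3 was low in STAT3ko cells of either lineage. Bcl3 (chromosome 7, 19808462 to 19822755, minus strand, mm10; 1835 exon bases) was measured in CD4 cells at 71.2 and 56.5 CPM with STAT3 and at 12.1 and 10.2 CPM without it. The WT CD8 libraries held 42.4 and 35.6 CPM and the STAT3ko CD8 libraries 9.02 and 8.53 CPM. Every STAT3ko library lay below every WT library, also across lineages. The fitted log2 fold change of STAT3ko against WT was -2.52 (SE 0.17) in CD4 and -2.15 (SE 0.17) in CD8 cells, or 17.5% and 22.5% of WT. In such bulk libraries, fewer cells with the transcript and less of it per cell cannot be told apart. Bcl3 shares 161 exon bases with an antisense gene, Gm16175, in the GENCODE M21 annotation, and the strand setting of the counting was not given in the sources used here, so reads of the 2 genes may not be separable. The values within replicate numbers 1 and 2 were -2.56 and -2.46 in CD4 and -2.23 and -2.06 in CD8 cells. The effect in CD8 minus that in CD4 cells was 0.36 (SE 0.23) on the log2 scale. With 1 STAT3ko CD8 library left out, the log2 fold change of Bcl3 in CD8 cells was -2.20 (without replicate 1) and -2.12 (without replicate 2). Each of these values rested on 1 STAT3ko CD8 library. Ranked from the lowest log2 fold change among the 8758 genes whose log2 CPM averaged 3 or more, Bcl3 was number 9 in CD4 and number 3 in CD8 cells. Among all 12428 tested genes it was number 86 in CD4 and number 55 in CD8 cells. These places follow from the fall for which Bcl3 was chosen and are no further evidence of it.

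**Figure D1:**
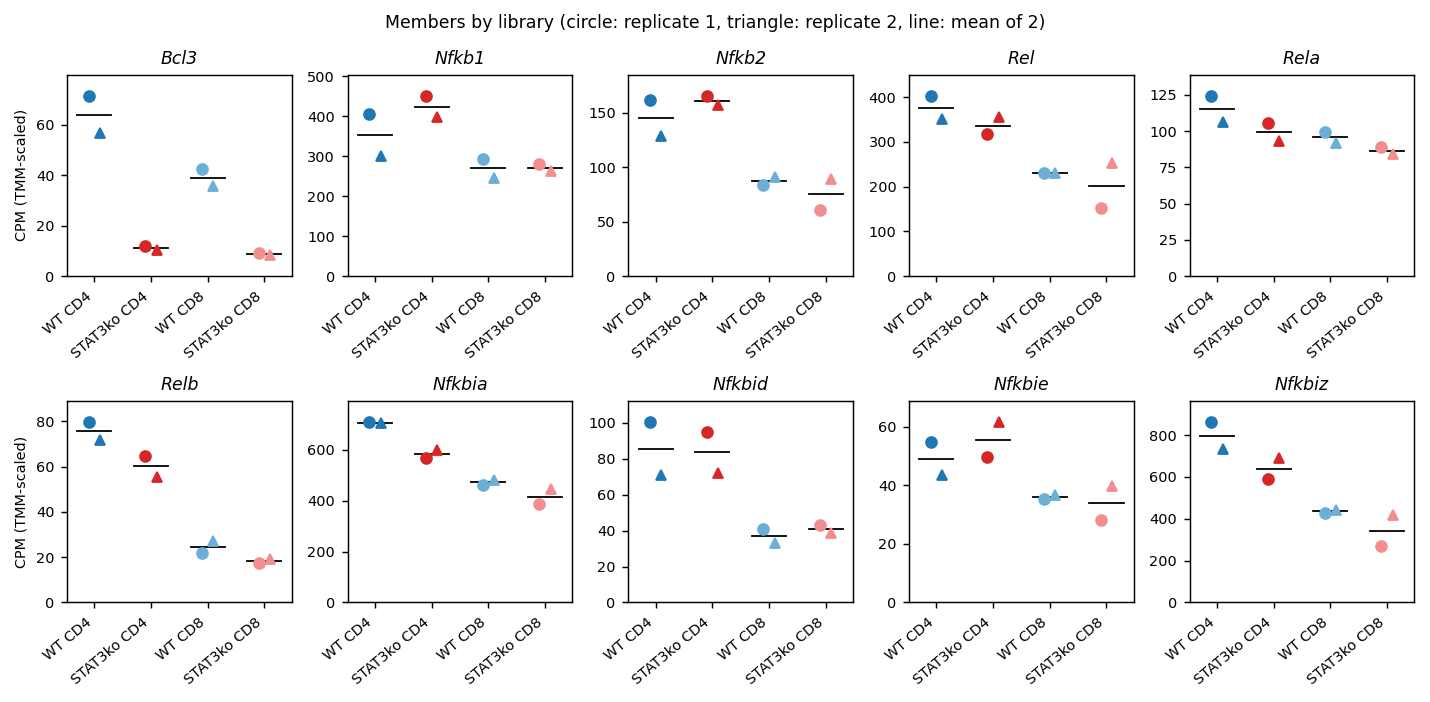
Level of each of the 10 genes in every library, as TMM-scaled CPM on the vertical axis of its own panel (starting at 0), by group, with circles for replicate 1, triangles for replicate 2 and a line at the mean of the 2 libraries. The 4 STAT3ko libraries of Bcl3 sit between 8.53 and 12.1 CPM, below all WT libraries, and in all panels CD8 libraries sit lower than CD4 libraries of the same genotype.

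RefSeq promoter windows (GRCm38.p6, 250 bases before and 50 bases from the annotated start on) were found for 7 of the 10 members, with 11 windows in all. Those of Bcl3 and Nfkbia, and the first windows of Nfkb2 and Nfkbid, are shown as examples of windows without and with the STAT motif. Capitals mark matches on either strand to the STAT motif TTCNNNGAA or to the kB motif (3 G, then any 5 bases, then 2 C), merged where they overlap.
Bcl3, chr7:19822706-19823005, minus strand: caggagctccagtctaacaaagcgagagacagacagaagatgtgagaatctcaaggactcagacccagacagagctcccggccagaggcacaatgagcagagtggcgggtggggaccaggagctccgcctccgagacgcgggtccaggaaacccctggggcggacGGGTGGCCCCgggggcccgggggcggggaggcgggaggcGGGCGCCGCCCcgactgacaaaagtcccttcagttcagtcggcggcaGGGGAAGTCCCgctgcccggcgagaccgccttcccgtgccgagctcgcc
Nfkbid, chr7:30421481-30421780, plus strand: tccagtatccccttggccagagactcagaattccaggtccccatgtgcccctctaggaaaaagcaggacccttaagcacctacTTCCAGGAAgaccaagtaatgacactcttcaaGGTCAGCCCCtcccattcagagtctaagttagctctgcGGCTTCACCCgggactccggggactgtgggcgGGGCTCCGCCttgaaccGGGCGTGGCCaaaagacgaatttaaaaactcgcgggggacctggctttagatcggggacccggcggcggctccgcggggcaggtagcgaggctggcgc
Nfkb2, chr19:46304487-46304786, plus strand: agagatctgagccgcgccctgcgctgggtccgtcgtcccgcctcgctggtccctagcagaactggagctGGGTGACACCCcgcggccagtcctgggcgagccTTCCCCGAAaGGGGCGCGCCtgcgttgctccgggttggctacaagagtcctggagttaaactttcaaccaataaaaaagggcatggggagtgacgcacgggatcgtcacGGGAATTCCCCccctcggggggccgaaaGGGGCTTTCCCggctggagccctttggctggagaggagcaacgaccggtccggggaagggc
Nfkbia, chr12:55492598-55492897, minus strand: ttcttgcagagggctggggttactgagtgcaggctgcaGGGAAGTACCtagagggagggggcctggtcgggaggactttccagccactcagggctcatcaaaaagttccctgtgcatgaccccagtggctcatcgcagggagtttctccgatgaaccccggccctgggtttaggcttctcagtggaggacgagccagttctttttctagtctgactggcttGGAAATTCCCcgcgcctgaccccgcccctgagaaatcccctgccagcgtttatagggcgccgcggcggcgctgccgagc

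The Bcl3 window held 0 matches to the STAT motif and 5 overlapping or separate matches to the kB motif. A STAT match stood in windows of 2 of the 7 members, at 148 bases before the start in Nfkb2 and at 167 bases before the start in the Nfkbid window shown. Of all 32851 promoter windows, 8.3% held the STAT motif and 50.8% the kB motif, which stood in windows of all 7 members. These matches describe letters in short windows and say nothing about where STAT3 or NF-kB bound.

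Per exon length, Bcl3 moved from among the middle and lower members to the last place. The deposited RPKM values (reads per kilobase of exon, scaled by library size) allow levels of different genes to be compared. In WT CD4 cells Nfkbia led with 447 ± 3.27 RPKM (SD, n = 2), followed by Nfkbiz with 205 ± 21.0 and Nfkb1 with 85.7 ± 17.3 RPKM. Rel (50.4 ± 4.30), Nfkb2 (44.2 ± 6.503), Rela (43.2 ± 4.30), Nfkbid (38.3 ± 8.88), Bcl3 (34.8 ± 5.28) and Relb (34.4 ± 2.12 RPKM) followed, and each of these neighbors overlapped the next in its libraries. Nfkbie was last with 20.1 ± 3.11 RPKM. Nfkbia, Nfkbiz and Nfkb1 held places 1 to 3, without overlap, in all 4 groups. Bcl3 was at place 8 in WT CD4 and at place 7 in WT CD8 cells, where it had 21.1 ± 2.83 RPKM, and at place 10 in STAT3ko CD4 (5.98 ± 0.76 RPKM) and STAT3ko CD8 cells (4.71 ± 0.24 RPKM). In both STAT3ko groups it lay below the next member without overlap.

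**Figure D2:**
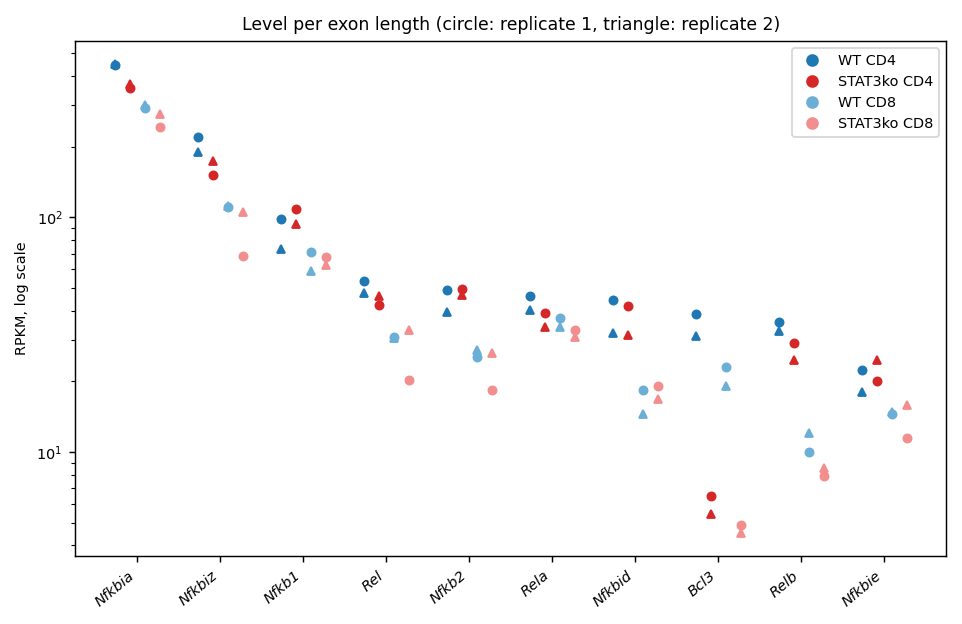
RPKM of each gene in every library, on a log axis, with genes from left to right in the order of their mean in WT CD4 cells, colors for the 4 groups, circles for replicate 1 and triangles for replicate 2. Nfkbia, Nfkbiz and Nfkb1 lead in all groups, and Bcl3 drops from 34.8 RPKM in WT CD4 to 5.98 RPKM in STAT3ko CD4 cells.

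The last place of Bcl3 by RPKM in STAT3ko cells, like the shares and ratios below, describes the difference on which the set was chosen. None of these is further evidence of it. Of the summed RPKM of Bcl3, Nfkbid and Nfkbiz, Bcl3 took 12.7% and 12.3% in the WT CD4 libraries and 3.27% and 2.59% in the STAT3ko CD4 libraries. Its share in CD8 cells was 15.2% and 13.1% in WT and 5.27% and 3.58% in STAT3ko libraries. Nfkbiz made up most of the sum in every library, between 72.6% and 83.2%. The ratio of Bcl3 to Nfkb1, which encodes a partner of the Bcl3 protein, was 0.39 and 0.42 in WT CD4 against 0.060 and 0.058 in STAT3ko CD4 libraries, and 0.32 in each WT CD8 against 0.072 and 0.073 in STAT3ko CD8 libraries.

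The other 9 members lay at most 0.41 log2 units from WT. Among the 10 members, Bcl3 was the 1 called lower in each lineage (edgeR quasi-likelihood test, Benjamini-Hochberg adjusted p below 0.05) and 0 were called higher, against a background of 5.08% of tested genes called lower and 6.54% called higher in CD4 cells, and 0.732% and 1.34% in CD8 cells. Since the set was chosen around this contrast, nothing is read from these counts. Of the 10 members, 7 had a negative value in CD4 and 8 in CD8 cells. Their median log2 fold change was -0.19 in each lineage, beside 0.017 in CD4 and -0.0071 in CD8 cells over all tested genes. In each lineage, 5 members (Bcl3, Rela, Relb, Nfkbia and Nfkbiz) had every STAT3ko library below every WT library, as did 25.0% of all tested genes in CD4 and 24.8% in CD8 cells.

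Among the subunits with an activation domain, Relb (chromosome 7, 19606222 to 19629438, minus strand), the partner of p52 in the alternative pathway, had 79.6 and 71.8 CPM in WT CD4 and 64.9 and 55.7 CPM in STAT3ko CD4 libraries, a log2 fold change of -0.33 (SE 0.14). In CD8 cells it had 22.1 and 27.0 CPM in WT and 17.5 and 19.3 CPM in STAT3ko libraries (-0.41, SE 0.14). The groups did not overlap in either lineage, with gaps that were small beside that of Bcl3. Rela (chromosome 19, 5637541 to 5648134, plus strand), which encodes the p65 subunit, had 124 and 106 CPM in WT CD4 and 106 and 93.0 CPM in STAT3ko CD4 libraries (-0.21, SE 0.12), where the gap between the groups was under 1 CPM. In CD8 cells Rela had 99.3 and 92.1 CPM in WT and 88.9 and 83.9 CPM in STAT3ko libraries (-0.15, SE 0.12). Rel (chromosome 11, 23736850 to 23770969, minus strand), which encodes c-Rel, a subunit needed for full T cell activation, had log2 fold changes of -0.16 (SE 0.22) and -0.19 (SE 0.22). Its libraries overlapped between genotypes in each lineage, and the value was -0.34 within replicate number 1 and 0.017 within number 2 in CD4 cells, and -0.60 and 0.12 in CD8 cells.

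For the precursor genes, Nfkb1 (chromosome 3, 135584655 to 135691547, minus strand) reached 406 and 300.0 CPM in WT CD4 and 450.4 and 397 CPM in STAT3ko CD4 libraries, a log2 fold change of 0.26 (SE 0.17) with overlapping groups. The value in CD8 cells was 0.011 (SE 0.17). Nfkb2 (chromosome 19, 46304737 to 46312090, plus strand) had 0.15 (SE 0.18) in CD4 and -0.21 (SE 0.19) in CD8 cells. It shares 531 exon bases with AC114539.1 and 299 with Psd, both on the opposite strand, so their reads may not be separable. In Nfkb2, the value in CD8 cells was -0.45 within replicate number 1 and -0.020 within number 2, and the STAT3ko CD8 library of replicate 1, with 61.1 CPM, stood below the other 3 CD8 libraries (83.6 to 90.7 CPM).

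Among the inhibitors, Nfkbia (chromosome 12, 55489409 to 55492647, minus strand), which encodes the fast-resynthesized IkB alpha, had 708 and 703 CPM in WT CD4 and 566 and 599 CPM in STAT3ko CD4 libraries (-0.28, SE 0.11). In CD8 cells it had 461 and 483 CPM in WT and 386 and 447 CPM in STAT3ko libraries (-0.18, SE 0.11). These groups did not overlap, and the distance between the closest libraries of the CD8 groups was smaller than the spread within STAT3ko CD8. Nfkbiz (chromosome 16, 55811377 to 55838641, minus strand), the most abundant nuclear IkB transcript, had 860 and 732 CPM in WT CD4 and 592 and 688 CPM in STAT3ko CD4 libraries (-0.32, SE 0.20), and 427 and 442 CPM in WT CD8 against 268 and 419 CPM in STAT3ko CD8 libraries (-0.34, SE 0.20). Most of this lay within replicate number 1, where the values were -0.54 in CD4 and -0.67 in CD8 cells, against -0.090 and -0.078 within number 2. Nfkbie (chromosome 17, 45555700 to 45563168, plus strand) had log2 fold changes of 0.18 (SE 0.19) in CD4 and -0.080 (SE 0.19) in CD8 cells. Nfkbid (chromosome 7, 30421731 to 30428746, plus strand) had -0.033 (SE 0.20) and 0.14 (SE 0.21). For both, the genotypes overlapped in each lineage. The log2 fold change of Nfkbiz in CD8 cells was -0.71 without STAT3ko CD8 replicate 2, and those of Rel (-0.61) and Nfkb2 (-0.52) also rested on which of the STAT3ko CD8 libraries was kept. Without STAT3ko CD8 replicate 1, the values of Rel (0.12), Nfkb2 (0.035) and Nfkbie (0.14) in CD8 cells were positive.

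**Figure D3:**
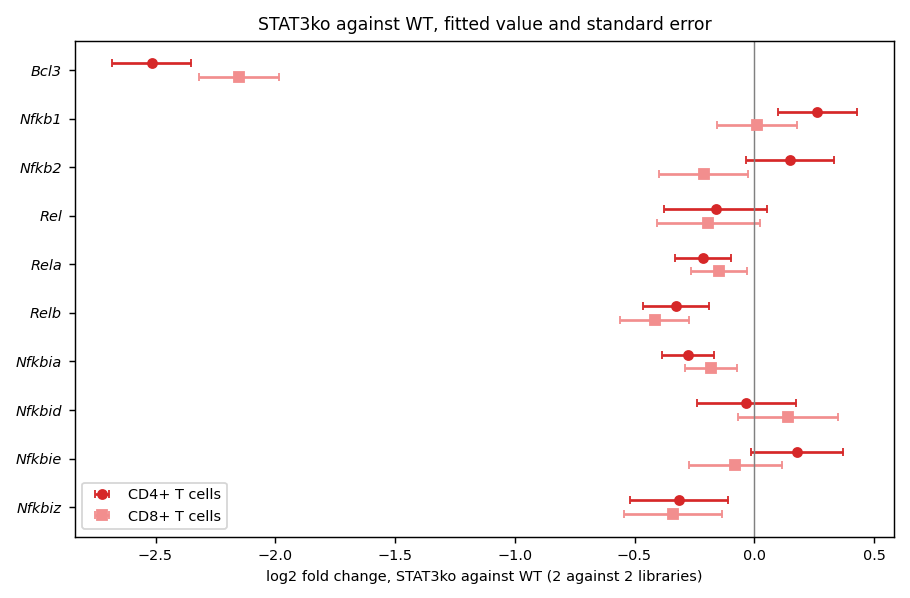
Log2 fold change of STAT3ko against WT for each gene, from the fit over all 8 libraries, with bars of 1 standard error, for CD4+ (circles) and CD8+ T cells (squares). Bcl3 stands at -2.52 and -2.15, and the other 9 genes lie between -0.41 and 0.26.

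Whether the STAT3ko effect differed between lineages was tested for the 9 members other than Bcl3, and 0 were called. The background was 0% of the 12428 tested genes by edgeR, with 982 at an unadjusted p below 0.05. The differences (CD8 minus CD4) ran from -0.36 (SE 0.26) for Nfkb2 to 0.17 (SE 0.29) for Nfkbid, with adjusted p between 0.900 and 0.999 and 0 of the 9 at an unadjusted p below 0.05. DESeq2 and limma on log2 RPKM also called 0 of the 9.

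All 10 members were lower in CD8 than in CD4 cells, in either genotype. In WT cells, every CD8 library lay below every CD4 library for all 10 members, as it did for 30.0% of all tested genes. In STAT3ko cells the same held for all 10 members, against 28.7% of tested genes. In WT cells, 6 of the 10 were called lower and 0 higher, against 11.6% of tested genes called lower and 12.2% called higher. In STAT3ko cells, 6 of the 10 were again called lower and 0 higher, against 6.67% and 5.84% of tested genes. The median log2 fold change of the members was -0.71 in WT and -0.72 in STAT3ko cells, beside 0.0011 and 0.0018 over all tested genes.

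Relb showed the largest difference between the lineages among the members. Its log2 fold change of CD8 against CD4 cells was -1.62 (SE 0.14, edgeR adjusted p = 0.000301) in WT and -1.71 (SE 0.14, adjusted p = 0.000824) in STAT3ko cells, with 71.8 to 79.6 CPM in WT CD4 and 22.1 to 27.0 CPM in WT CD8 libraries. Nfkb2, whose product p52 pairs with Relb, fell by 0.74 (SE 0.19, edgeR adjusted p = 0.0248) in WT, from 162 and 129 to 83.6 and 90.7 CPM, and by 1.10 (SE 0.19, adjusted p = 0.00989) in STAT3ko cells, from 165 and 157 to 61.1 and 89.4 CPM. Nfkb1 had -0.39 (SE 0.17, edgeR adjusted p = 0.136) in WT and fell by 0.64 (SE 0.17, adjusted p = 0.0450) in STAT3ko cells. Rel had -0.70 (SE 0.22, edgeR adjusted p = 0.0514) and -0.73 (SE 0.22, adjusted p = 0.0674), with 351 to 402 CPM in WT CD4 and 231 CPM in each WT CD8 library. Rela had the smallest values, at -0.27 (SE 0.12, edgeR adjusted p = 0.146) and -0.20 (SE 0.12, adjusted p = 0.327).

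Of the nuclear IkB genes, Nfkbid fell by 1.21 (SE 0.21, edgeR adjusted p = 0.00518) in WT and by 1.04 (SE 0.21, adjusted p = 0.0181) in STAT3ko cells, with 70.8 to 100.2 CPM in WT CD4 and 33.0 to 40.9 CPM in WT CD8 libraries. Nfkbiz fell by 0.87 (SE 0.20, edgeR adjusted p = 0.0189) and by 0.90 (SE 0.21, adjusted p = 0.0293). Bcl3 fell by 0.71 (SE 0.15, edgeR adjusted p = 0.0137) in WT cells and had -0.35 (SE 0.17, adjusted p = 0.233) in STAT3ko cells, where its level was low in each lineage. That these 2 values differ was not shown, since their difference of 0.36 is the same quantity as the lineage difference of the STAT3ko effect given above. Of the cytosolic inhibitors, Nfkbia fell by 0.58 (SE 0.11, edgeR adjusted p = 0.00726) and by 0.48 (SE 0.11, adjusted p = 0.0269). Nfkbie had -0.45 (SE 0.19, edgeR adjusted p = 0.138) and -0.71 (SE 0.19, adjusted p = 0.0524).

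**Figure D4:**
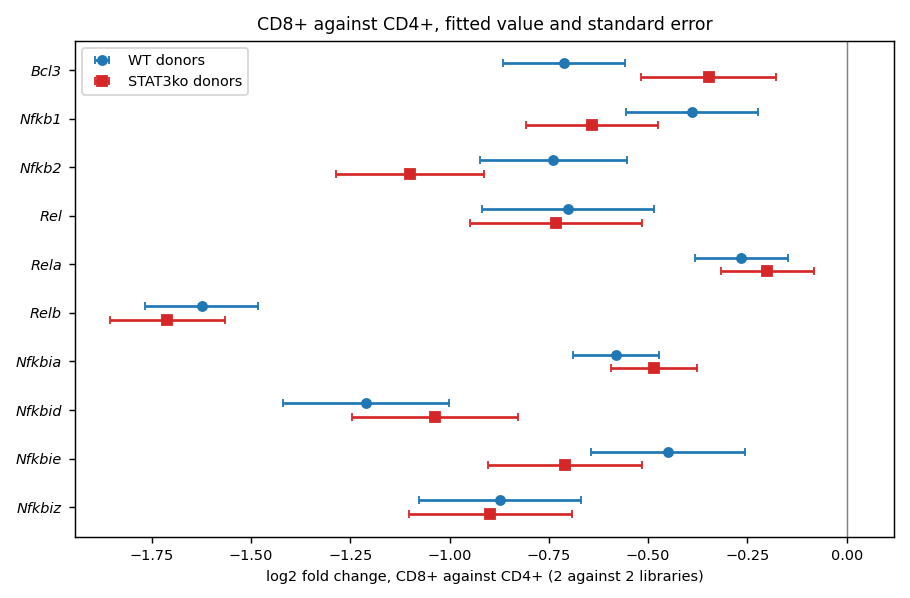
Log2 fold change of CD8+ against CD4+ T cells for each gene in WT (circles) and STAT3ko (squares) cells, from the fit over all 8 libraries, with bars of 1 standard error. All 20 values lie below 0, from -1.71 for Relb to -0.20 for Rela.

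Relb in either genotype and Nfkbid in WT cells were called under each of the 12 alternatives run. Other calls rested on single libraries. In WT cells, Bcl3, Nfkb2 and Nfkbiz were not called without WT CD4 replicate 1 (adjusted p = 0.0616, 0.0993 and 0.0685 by the edgeR test), Nfkb2, Nfkbia and Nfkbiz were not called without WT CD8 replicate 1 (0.116, 0.0515 and 0.0882), and Bcl3, Nfkb2 and Nfkbiz were not called without WT CD8 replicate 2 (0.0781, 0.0670 and 0.0649). Nfkb1 was called without WT CD4 replicate 2 (edgeR adjusted p = 0.0430). In STAT3ko cells, Relb alone was called without STAT3ko CD4 replicate 1. Without STAT3ko CD4 replicate 2, Nfkb2, Relb and Nfkbid were called, and without STAT3ko CD8 replicate 1, Nfkb2 and Relb. Without STAT3ko CD8 replicate 2, Rel (edgeR adjusted p = 0.0138) and Nfkbie (0.0471) were called with Nfkb2, Relb, Nfkbia and Nfkbiz, and Nfkb1 and Nfkbid were not. All 10 values stayed negative in each of these fits. Beside this, the B cell marker list of 6 genes summed to 96.1 to 107 CPM in WT CD4, 149 to 170.1 CPM in STAT3ko CD4 and 37.3 to 54.7 CPM in CD8 libraries. Cd22 made up most of it in each group. Cd79b ran the other way, with 0.89 to 2.46 CPM in CD4 and 11.9 to 12.8 CPM in CD8 libraries. The remaining 4 genes of the list, among them Cd79a, Ms4a1 and Blk, were at most 0.35 CPM in every library, and the part of this list in the lineage differences was not tested.

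The genes of the wider pathway were counted in 5 lists of 95 genes, of which 93 were tested. The lists were drawn up with earlier results of these data known. Their calls and p-values therefore do not come from a choice made beforehand. Tnfrsf11a and Cd40 were too low, with at most 14 and 2 counts. In CD4 cells, 9 of the 93 were called in STAT3ko against WT (3 higher and 6 lower), and in CD8 cells 5 (2 higher and 3 lower). Among all tested genes, 6.54% were called higher and 5.08% lower in CD4 cells, and 1.34% and 0.732% in CD8 cells, so the CD4 count was not above the background. The CD8 count changed with the tool, to 8 by DESeq2 and to 1 or 3 by limma, and nothing is read from it. These shares are also the background for the counts of single lists below. Among the 25 kinases and adaptors of NF-kB signalling, such as Ikbkb, Malt1 and the TRAF genes, edgeR called 0 in either lineage. At an unadjusted p below 0.05 there were 4 in CD4 and 1 in CD8 cells, DESeq2 called 2 in CD4 and 0 in CD8 cells, and limma called 0. Their median log2 fold change was -0.075 in CD4 and -0.037 in CD8 cells.

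Among the 15 genes that restrain the pathway, 2 fell in CD4 cells and 1 in CD8 cells. Peli1, a ubiquitin ligase that limits c-Rel in T cells, fell in CD4 cells from 324 and 367 to 194 and 189 CPM (-0.85 on the log2 scale, SE 0.11, edgeR adjusted p = 0.00387), and was called under all 12 alternatives. Tnip2, which encodes an A20-binding protein, fell by 0.72 (SE 0.15, edgeR adjusted p = 0.0231) and was not called without WT CD4 replicate 2 or without STAT3ko CD4 replicate 1 or 2 (0.116, 0.0913 and 0.146). In CD8 cells, Otulin, which removes linear ubiquitin chains, fell from 177 and 186 to 124 and 109.7 CPM (-0.63, SE 0.10, edgeR adjusted p = 0.0284), and lost the call without any 1 of the 4 CD8 libraries (adjusted p between 0.0858 and 0.196).

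Among the 19 tested receptors and their adaptors, 4 were called in CD4 cells and 2 in CD8 cells. Icos, a costimulatory receptor, fell in CD4 cells from 2326 and 3162 to 1235 and 1399 CPM (-1.06, SE 0.20, edgeR adjusted p = 0.0153). Tnfrsf25, the receptor DR3, fell in CD4 cells from 65.6 and 70.7 to 38.7 and 34.5 CPM (-0.90, SE 0.15, edgeR adjusted p = 0.0110) and in CD8 cells from 12.02 and 15.2 to 4.39 and 5.59 CPM (-1.45, SE 0.17, adjusted p = 0.0144). Tnfrsf1b, which encodes TNF receptor type II, rose in CD4 cells from 393 and 365 to 548 and 573 CPM (0.56, SE 0.13, edgeR adjusted p = 0.0283). Its value in CD8 cells was negative (-0.24, SE 0.13, edgeR adjusted p = 0.346). The libraries held 588 and 612 CPM in WT CD8 and 451 and 562 CPM in STAT3ko CD8 cells. The lineage difference of Tnfrsf1b was not called (-0.81, SE 0.18, edgeR adjusted p = 0.240). Il1r1, the receptor for interleukin 1, was named after its values were seen, since its mean over all libraries was under the minimum for naming. It had 1573 and 2133 counts in WT CD4 and 17 in each STAT3ko CD4 library (-6.78, SE 0.36, edgeR adjusted p = 0.000325), and 174 and 252 counts in WT CD8 against 2 and 11 in STAT3ko CD8 libraries. Without STAT3ko CD4 replicate 1, the adjusted p rose to 0.104 for Icos, 0.0545 for Tnfrsf25 and 0.124 for Tnfrsf1b in CD4 cells by the edgeR test, and over single left-out libraries these calls were lost in 3, 3 and 4 of the 4 cases. The call of Tnfrsf25 in CD8 cells was lost without WT CD8 replicate 2 (adjusted p = 0.0889) and without STAT3ko CD8 replicate 1 (0.0892) or 2 (0.0853) in the edgeR test.

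Among the 26 tested targets of NF-kB, the chemokine gene Ccl5 rose in CD4 cells from 25.9 and 21.5 to 151 and 147 CPM (2.65, SE 0.12, edgeR adjusted p = 0.000325), and was called under all 12 alternatives. Its level in CD8 cells rose from 194 and 207 to 376 and 385 CPM (0.92, SE 0.11, edgeR adjusted p = 0.0147). Ccnd2, which encodes cyclin D2, rose in CD4 cells (0.88, SE 0.15, edgeR adjusted p = 0.0117) and in CD8 cells (0.82, SE 0.15, adjusted p = 0.0452). Gadd45b, a stress response gene, fell in CD4 cells from 202 and 130 to 82.1 and 88.7 CPM (-0.96, SE 0.20, edgeR adjusted p = 0.0230). In CD8 cells the calls of Ccl5 and Ccnd2 were lost without any 1 of the 4 CD8 libraries (adjusted p between 0.0784 and 0.250), and in CD4 cells those of Ccnd2 and Gadd45b were lost without either STAT3ko CD4 library (0.0595 to 0.129). The remaining 23 targets in CD4 and 24 in CD8 cells did not pass the test, among them Tnf, Il2ra and Bcl2l1. The median log2 fold change of the targets was 0.23 in CD4 and 0.19 in CD8 cells.

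Of 8 genes known as partners or regulators of the Bcl3 protein (Kat5, Pir, Bard1, Ctbp1, Hdac1, Gsk3a, Gsk3b and Akt1), edgeR called 0 in either lineage, with 2 in CD4 and 1 in CD8 cells at an unadjusted p below 0.05. DESeq2 called 1 in CD4 and 0 in CD8 cells, and limma called 0. The highest point of this list in CD4 cells was Pir, which rested on 1 and 0 counts in WT and 13 and 2 counts in STAT3ko libraries.

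**Figure D5:**
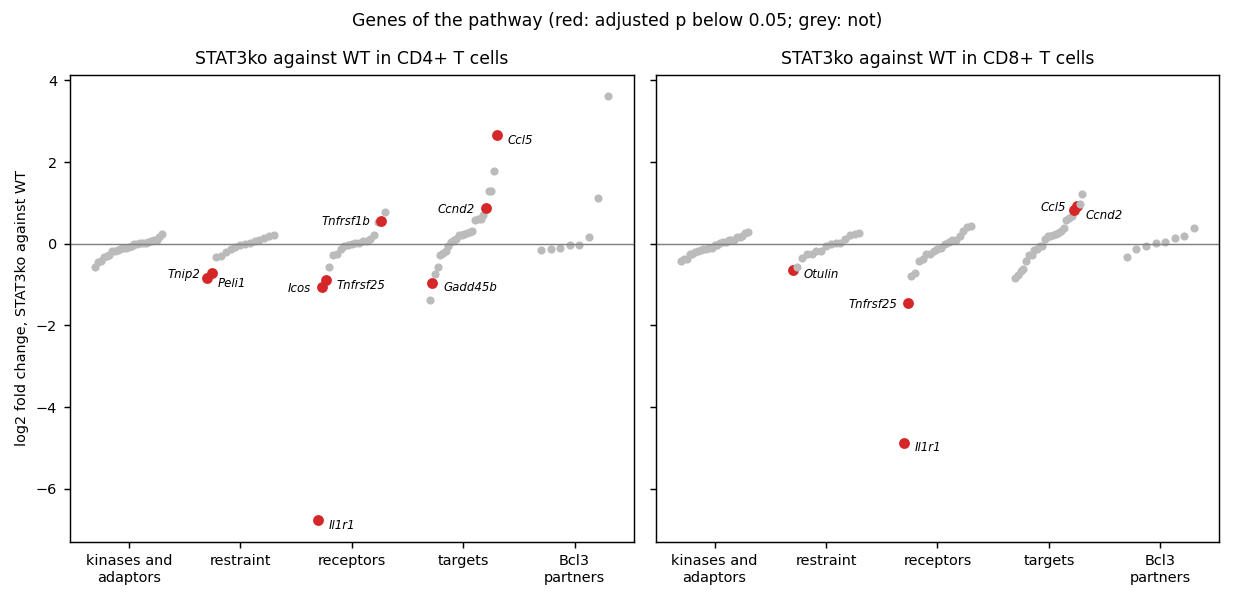
Log2 fold change of STAT3ko against WT for the 93 tested genes of the 5 pathway lists (set apart along the horizontal axis), in CD4+ T cells on the left and CD8+ T cells on the right, each point a gene and red those with an edgeR adjusted p below 0.05. The 9 and 5 called genes fall in the lists of restraint, receptors and targets, and the kinases and adaptors hold 0.

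Between lineages, more genes of the wider pathway were called lower than higher in CD8 cells. Of the 93 genes, 25 were called lower and 7 higher in CD8 than in CD4 cells of WT donors, and 20 lower and 3 higher in STAT3ko cells. The background was 11.6% lower and 12.2% higher in WT, and 6.67% lower and 5.84% higher in STAT3ko cells. The median log2 fold change was -0.17 and -0.18. By contrast with the members, 32 and 30 of the 93 had a positive value. Among the kinases and adaptors, 6 fell in WT and 4 in STAT3ko cells and 0 rose, among them Ikbke (-1.40, SE 0.13, edgeR adjusted p = 0.000391 in WT) and Birc3 (-0.87, SE 0.11, adjusted p = 0.00126 in WT).

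The genes whose profile over the 8 libraries was most like that of Bcl3 were Fam20a, Stat3, Trpm6, Acpp and Stom. Bcl3 was chosen for its fall in STAT3ko cells, and that fall shapes its profile. Genes that also fall there, Stat3 as the deleted gene among them, come near Bcl3 by construction. The list and the distances of the other members are therefore no further evidence. Likeness was the root-mean-square difference of log2 CPM after each gene was centered on its own mean, over 8757 genes that averaged 3 or more in log2 CPM. It was 0.30 for Fam20a, 0.44 for Stat3, 0.45 for Trpm6, 0.48 for Acpp and 0.49 for Stom. Fam20a, which encodes a pseudokinase of the secretory pathway, had log2 fold changes of -2.87 (SE 0.25) in CD4 and -2.24 (SE 0.26) in CD8 cells. The other NF-kB and IkB members lay between 1.04 (Nfkbiz) and 1.24 (Nfkb1) from Bcl3. Among the pairs of members, Rel and Nfkbiz were the most alike, at 0.11.

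Bcl3 and Relb lie 179024 bases apart on the same strand of chromosome 7. Within 250 kb on either side of Bcl3 there were 22 other gene rows, 13 of them tested. Of these 13, 2 were called lower and 0 higher in STAT3ko CD4 cells, and 1 was called lower and 0 higher in STAT3ko CD8 cells, beside 5.08% and 0.732% of all tested genes called lower. With 13 genes, nothing particular to the region is read from these counts. They are named although they fell outside the naming rule, after their values were seen. Ceacam16, 29342 bases from Bcl3, had 28 and 23 counts in WT CD4 against 7 and 6 in STAT3ko CD4 libraries (-1.98, SE 0.36, edgeR adjusted p = 0.0135), and 121 and 165 counts in WT CD8 against 39 and 46 in STAT3ko CD8 libraries (-1.62, SE 0.29, adjusted p = 0.0377). Unlike Bcl3, it was higher in CD8 than in CD4 libraries in either genotype. Tomm40, 93033 bases away, fell in CD4 cells from 39.8 and 38.6 to 27.0 and 25.6 CPM (-0.57, SE 0.13, edgeR adjusted p = 0.0261) and had -0.63 in CD8 cells (adjusted p = 0.0525). The calls of Ceacam16 in CD8 and of Tomm40 in CD4 cells were lost without any 1 of the 4 libraries of the lineage (adjusted p between 0.0714 and 0.280), and that of Ceacam16 in CD4 cells without either STAT3ko CD4 library (0.0667 and 0.0980).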

How the data were processed

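RNA from 8 libraries of sorted donor T cells (4 groups of 2) was sequenced. The authors aligned single-end reads to mm10 with STAR and counted them per RefSeq gene with htseq-count. The deposited tables hold raw counts per gene and RPKM values that the authors computed from them. The kit is named differently in the labels and in the methods, the growth text of the labels describes another cell type and was not used, and the strand setting is not given in the sources used here.

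Counts were analysed with edgeR 4.0.16 in R 4.3.3. Genes passed filterByExpr with a minimum count of 10, libraries were scaled by TMM (factors 0.982 to 1.03), and 1 quasi-likelihood fit over all 8 libraries gave every comparison, with Benjamini-Hochberg adjustment over 12428 genes and a threshold of 0.05. The standard error of a log2 fold change was its size divided by the square root of F. The RPKM were used for levels between genes and, as log2(RPKM + 1) and log2(RPKM + 0.1), in limma 3.58.1. DESeq2 1.42.0, other scalings, no filter, only the libraries of a comparison, a replicate block and leaving out each library were the alternatives. The scripts were tested on simulated data.

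The genes and lists were chosen with earlier results of these data known. Some genes of the lists are not reported here by name. Besides the members, Stat3, Cd4 and Cd8a, some genes were named by rule. These were up to 3 called genes per list and STAT3ko comparison with the largest absolute log2 fold change, and the 5 genes most like Bcl3. All of these averaged 3 or more in log2 CPM. Other genes, such as marker genes, Il1r1, Pir, Ikbke, Malt1, Birc3, Ceacam16 and Tomm40, were named outside this rule. Total counts ranged from 20171396 to 23282757 per library.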

Additional observations from a re-analysis of the deposited data

How the results depend on the processing

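The log2 fold change of Bcl3 in STAT3ko against WT cells ranged from -2.68 to -2.36 in CD4 and from -2.28 to -1.95 in CD8 cells over the 12 alternatives, and all 10 members stayed negative in CD8 against CD4 cells under each of them. No called value turned its direction. Uncalled values of STAT3ko against WT changed sign under at least 1 alternative for Nfkb2 and Nfkbid in CD4 cells (-0.013 to 0.29 and -0.27 to 0.21) and for Nfkb1 (-0.12 to 0.13), Nfkb2 (-0.52 to 0.035), Rel (-0.61 to 0.12), Nfkbid (-0.014 to 0.29) and Nfkbie (-0.36 to 0.14) in CD8 cells. The number of members with a negative value was 6 to 8 in CD4 and 6 to 10 in CD8 cells. Of the single-gene and level values recomputed under an alternative, 586 kept their side of the threshold or moved by less than the spread. A call was lost in 90 and gained in 19, and 8 values of the STAT3ko effect moved by more than the spread. Of the recomputed counts of called genes, 62 stayed the same or close and 25 moved further. Leaving out a library gave 3 to 7 members called between lineages in WT cells (6 with all libraries), 1 to 6 in STAT3ko cells (6), 1 in STAT3ko against WT CD4 cells (1) and 0 to 1 in CD8 cells (1). It gave 3 to 10 pathway genes called in STAT3ko against WT CD4 cells (9) and 1 to 2 in CD8 cells (5). Limma called 2 members between lineages in STAT3ko cells with a pseudocount of 1 and 3 with a pseudocount of 0.1, and 1 and 3 pathway genes in STAT3ko against WT CD8 cells. DESeq2 called 14 pathway genes in CD4 and 8 in CD8 cells, and a fit of only the 4 CD8 libraries called 1. The cause of these shifts was not tested. Over all genes, the counts for STAT3ko against WT CD8 cells ranged from 7 (without STAT3ko CD8 replicate 1) to 2258 (replicate block), beside 257.

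The groups share replicate numbers that no source ties to a day or pool, and with 2 numbers their deviations from the group means correlated at 0.42 to 0.67 over 12428 genes. With the replicate number as a block, all 10 members were called lower in CD8 cells in WT and 9 in STAT3ko donors. In STAT3ko against WT CD4 cells, 3 members (Bcl3, Nfkb1 and Nfkbia) were called. Nothing is read from calls of members in STAT3ko against WT cells, here or above, since the set was chosen around this contrast. The pathway counts of STAT3ko against WT were 27 in CD4 and 18 in CD8 cells. The difference of the STAT3ko effect between lineages was called for 0 members in that fit, with 403 genes called in all.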
